A study of Mus musculus with 12 samples.

Results

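The genes described here encode the protein subunits of the mitochondrial ribosome, in the livers of mice under endoplasmic reticulum (ER) stress. A gene was a member when its symbol began with Mrpl or Mrps followed by a number and at least 1 probeset of the array was annotated to it and to no other gene. This gave 76 of the 18193 genes with a probeset of their own, of which 47 were named for the large subunit (Mrpl) and 29 for the small subunit (Mrps). Of the 45037 tested probesets 156 read a member, and each gene was represented by its brightest probeset. A further 4 probesets carry the name of a member together with that of another gene and were left out, so that *Mrpl30* and *Mrpl53* have no value.

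Total RNA from liver homogenate was profiled on 12 Affymetrix arrays, with 3 animals in each of 4 groups and 1 animal per array. The groups were Atf6a-/- animals given tunicamycin (TM), Atf6a-/- animals given vehicle, wild-type animals (+/+) given TM and wild-type animals given vehicle. TM, an inhibitor of N-linked glycosylation that causes unfolded proteins to build up in the ER, was injected intraperitoneally at 2 mg/kg in dextrose, vehicle was dextrose alone, and livers were taken 8 h later. Animals were of mixed age and sex and fasted before they were killed, and the comparison asks which genes respond to ER stress and which of these responses change without ATF6α, a stress-activated transcription factor.

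Mitochondria carry their own ribosome, which translates the few messages of mitochondrial DNA into core subunits of the respiratory chain and ATP synthase. Its ribosomal RNAs are made inside the organelle, but all of its proteins are encoded in the nucleus, translated in the cytosol and imported. Many have counterparts in bacterial ribosomes, and others are found only in mitochondria. The names used here are those of the symbols: in structures of the mammalian particle the proteins of *Mrps18a* and *Mrps30* lie in the large subunit, and that of *Mrps36* is a part of the 2-oxoglutarate dehydrogenase complex and not of the ribosome.

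The promoters of the 2 members with the largest increases by limma's statistic (*Mrps18b* and *Mrps12*) and the 2 with the largest decreases (*Mrpl49* and *Mrpl42*) under TM in wild-type animals, and of *Mrps36*, whose response differed between the genotypes, are shown because these genes carry the results that follow. The sequences are from RefSeq (GRCm38.p6), 5′ to 3′ on the strand of the gene, and hold 250 bases before and 50 after the annotated start. They lie at chr17:35916391-35916690 (*Mrps18b*), chr7:28741772-28742071 (*Mrps12*), chr19:6057706-6058005 (*Mrpl49*), chr10:95501900-95502199 (*Mrpl42*) and chr13:100744610-100744909 (*Mrps36*), each on the minus strand. Capitals mark matches, on either strand, to a motif that was searched.
Mrps18b: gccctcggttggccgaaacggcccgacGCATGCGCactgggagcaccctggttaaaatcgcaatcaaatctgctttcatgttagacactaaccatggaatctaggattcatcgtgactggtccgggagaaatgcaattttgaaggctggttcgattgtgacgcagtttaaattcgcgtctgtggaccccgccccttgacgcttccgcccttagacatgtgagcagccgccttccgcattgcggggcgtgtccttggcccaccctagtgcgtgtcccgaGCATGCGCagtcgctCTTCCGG
Mrps12: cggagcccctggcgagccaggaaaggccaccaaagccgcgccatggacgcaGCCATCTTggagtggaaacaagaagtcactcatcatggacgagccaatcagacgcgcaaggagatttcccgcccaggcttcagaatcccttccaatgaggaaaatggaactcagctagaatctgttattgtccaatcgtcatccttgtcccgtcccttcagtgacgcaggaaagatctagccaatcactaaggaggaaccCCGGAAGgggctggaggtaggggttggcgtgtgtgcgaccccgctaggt
Mrpl49: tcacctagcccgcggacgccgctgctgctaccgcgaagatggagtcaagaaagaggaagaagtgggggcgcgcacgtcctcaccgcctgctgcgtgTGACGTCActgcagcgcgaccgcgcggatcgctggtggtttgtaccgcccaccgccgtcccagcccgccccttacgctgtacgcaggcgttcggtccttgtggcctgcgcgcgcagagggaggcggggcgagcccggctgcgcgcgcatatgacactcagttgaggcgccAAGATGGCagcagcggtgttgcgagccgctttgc
Mrpl42: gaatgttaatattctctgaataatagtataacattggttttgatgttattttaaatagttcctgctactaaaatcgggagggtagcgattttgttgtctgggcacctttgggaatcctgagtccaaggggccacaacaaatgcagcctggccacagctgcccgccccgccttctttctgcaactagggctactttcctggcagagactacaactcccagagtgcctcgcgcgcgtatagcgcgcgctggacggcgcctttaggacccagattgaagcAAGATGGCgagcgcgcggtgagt
Mrps36: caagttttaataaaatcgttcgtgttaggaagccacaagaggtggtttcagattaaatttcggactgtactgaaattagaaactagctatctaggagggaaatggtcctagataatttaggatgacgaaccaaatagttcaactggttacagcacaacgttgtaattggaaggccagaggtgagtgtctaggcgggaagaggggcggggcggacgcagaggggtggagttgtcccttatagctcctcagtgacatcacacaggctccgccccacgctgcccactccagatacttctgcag

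Positions are counted from 1 at the first transcribed base, with no 0. The *Mrps18b* promoter held the core motif of NRF1 (GCGCATGC), a factor named for its role at genes of respiration, at -223 and 29 and that of ETS factors (CCGGAAG), the family of GABPA, at 44. The *Mrps12* promoter held the ETS motif at 2 and the motif of YY1 (AAGATGGC) at -199. The YY1 motif lay at 17 in the *Mrpl49* promoter, which also held a cAMP response element (CRE, TGACGTCA) at -154, and at 28 in that of *Mrpl42*. No searched motif was found in the *Mrps36* window, which says only that these letters are not in it.

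Of the 76 members 67 have a promoter in the table, and a gene was counted when any of its promoters held the motif. The ETS motif was in 25 of 67 members (37.3%), against 9.93% of the 27025 genes in the table. These are more genes than the 18193 measured, and no share was taken over genes at levels like those of the members. The YY1 motif was in 12 members (17.9%, against 3.19%) and the NRF1 motif in 8 (11.9%, against 3.05%). The E-box (CACGTG) was in 5 (7.46%, against 8.09%) and the CRE in 2 (2.99%, against 2.03%). The motifs tied to the unfolded protein response were in no member's window: the UPRE (TGACGTGG, 0.714% of all genes), the CARE read by ATF4 (TGATGNAA, 4.51%) and the ERSE (CCAAT and CCACG 9 bases apart, 0.137%), whose second piece is also part of the UPRE on the other strand. Among the 8 members called higher with TM in either genotype the ETS motif was in 5, and among the 11 called lower in 3.

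A difference counted as a call when it passed 1.5-fold and limma's p, adjusted by Benjamini-Hochberg over all 45037 probesets, was under 0.05. Levels are RMA values on the log2 scale and differences are log2 differences. The mean level of a member's probeset over the 12 arrays ran from 7.83 to 11.34, above the median of all probesets on every array (4.98 to 5.11). The 5 highest means were those of *Mrpl15*, *Mrpl39*, *Mrpl27*, *Mrpl42* and *Mrpl24* and the 5 lowest those of *Mrpl49*, *Mrpl1*, *Mrpl33*, *Mrpl19* and *Mrps25*, which is no order of abundance because probes differ in affinity. The median spread within groups was 0.119 (SD) over the members and 0.153 over all genes. With 3 animals per group the smallest p an exact permutation test allows is 0.1, and calls therefore rest on limma's fit across all probesets.

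The arrays showed the stress itself in both genotypes. All 10 listed ER stress markers rose with TM in Atf6a-/- animals and in wild-type animals. *Atf6*, the targeted gene, averaged 7.33 ± 0.41 in Atf6a-/- and 9.04 ± 0.38 in wild-type animals under vehicle, and 10.15 ± 0.37 in Atf6a-/- and 10.97 ± 0.21 in wild-type animals under TM (SD, n = 3 each). Neither difference between the genotypes was called (-1.71 with adjusted p = 0.184, and -0.82 with adjusted p = 0.0905), and it is not known here whether this probeset reads the deleted part. Signal of Y-linked genes was present on 1 array of each group. The summed level of 8 hepatocyte markers, most of it from secreted proteins near the top of the scale, lay between 17.28 and 17.37 on all arrays. Of these *Tat* rose with TM in both genotypes (1.03 in Atf6a-/- and 0.89 in wild-type animals) and *Apob* fell in Atf6a-/- animals (-0.83, against an uncalled -0.75 in wild-type animals). That of 5 stellate cell markers was 10.03 to 10.56 with TM against 10.97 to 11.13 with vehicle in Atf6a-/- animals, and 10.32 to 10.57 against 10.78 to 11.19 in wild-type animals, with 2 of 5 called lower in each genotype. Of 6 macrophage markers 3 were called lower in Atf6a-/- animals (11.75 to 12.35 against 12.34 to 12.97) and 0 in wild-type animals (12.35 to 12.56 against 12.24 to 13.19). The summed lymphocyte and cholangiocyte markers were also lower with TM, with 1 of 5 and 1 of 4 measured called, both in Atf6a-/- animals, and those of endothelium, neutrophils and erythroid cells overlapped between TM and vehicle, although *Lyve1* of the endothelial list rose in Atf6a-/- animals (1.52, adjusted p = 0.0325) and *Kdr* fell in wild-type animals (-0.65, adjusted p = 0.00802). The part of these cells in the results was not tested, and in bulk liver fewer cells of a type and less RNA per cell cannot be told apart.

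TM moved some mitochondrial ribosomal protein genes up and others down, while most stayed within 1.5-fold. In Atf6a-/- animals 7 of 76 members rose (9.21%) and 10 fell (13.2%). Over all genes 13.1% rose and 8.21% fell (10.6% and 5.95% of all probesets), so that the share of members that rose was below the background and the share that fell above it. All 76 members lay above the median mean level of all probesets, while this background also holds dim genes. In wild-type animals 5 members rose (6.58%) and 7 fell (9.21%), against 8.92% and 6.9% of all genes (7.1% and 4.95% of probesets). Without the limit on fold, 14 members were higher and 25 lower in Atf6a-/- animals, against 17.6% and 17.5% of all genes, and 13 and 13 in wild-type animals, against 12.1% and 11.9%.

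The median TM response of the members was -0.12 in Atf6a-/- animals and -0.04 in wild-type animals, and that of all genes was -0.10 and -0.06. TM and vehicle arrays did not overlap for 50 of 76 members in Atf6a-/- animals (50.3% of all genes) and for 41 in wild-type animals (39.3%). A total of 19 members were called with TM in at least 1 genotype, 4 of them higher and 6 lower in both, and none in opposite directions. The sign of the TM response was shared by the genotypes for 68 of 76 members (89.5%) and for 78.1% of all genes.

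**Figure D1:**
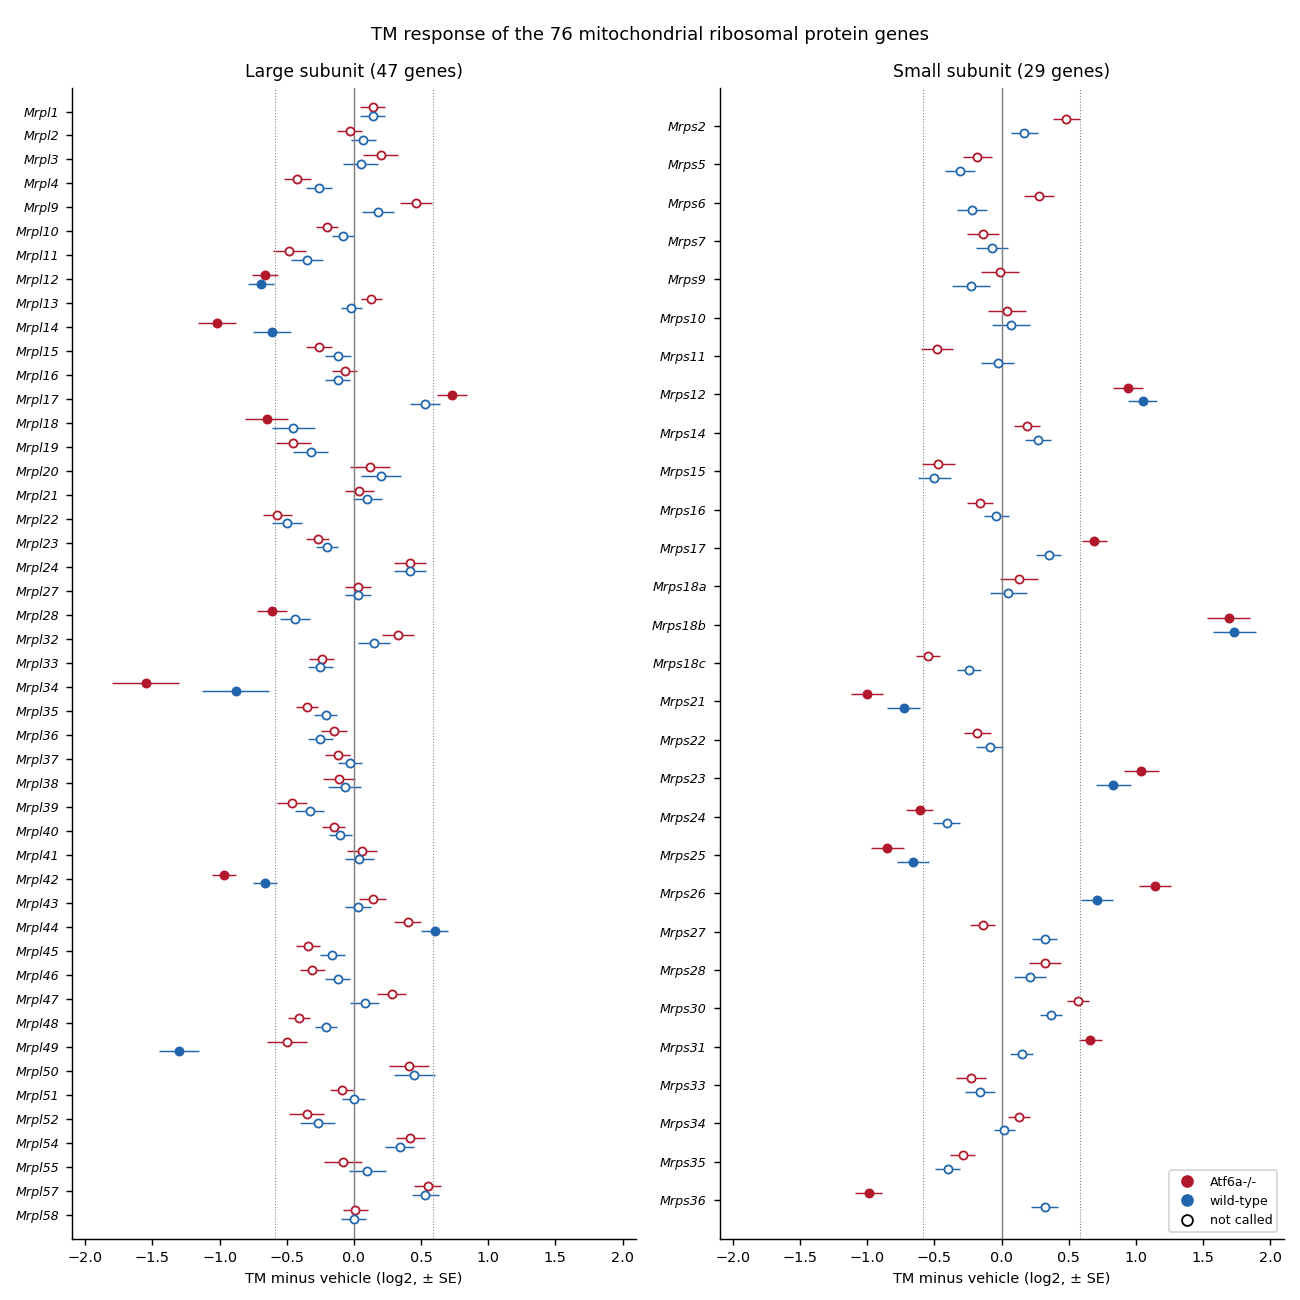
TM minus vehicle for the 76 members on the log2 scale (x axis), large subunit on the left and small subunit on the right, with Atf6a-/- animals in red above wild-type animals in blue and bars for the standard error of limma's fit. Filled points were called, open points were not, and dotted lines mark 1.5-fold: 57 members were called in neither genotype, and the responses ran from -1.55 for Mrpl34 in Atf6a-/- animals to 1.73 for Mrps18b in wild-type animals.

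By the brightest probesets the increases were mostly in genes named for the small subunit. Of 29 small subunit genes 6 rose (20.7%) and 4 fell (13.8%) in Atf6a-/- animals. In wild-type animals 4 rose (13.8%) and 2 fell (6.9%). Without *Mrps36*, 3 of 28 small subunit genes fell in Atf6a-/- animals (10.7%). Of 47 large subunit genes 1 rose (2.13%) and 6 fell (12.8%) in Atf6a-/- animals. In wild-type animals 1 rose (2.13%) and 5 fell (10.6%). Over all genes 13.1% rose and 8.21% fell in Atf6a-/- animals, and 8.92% and 6.9% in wild-type animals. The medians were -0.01 for the small and -0.12 for the large subunit in Atf6a-/- animals, and 0.02 and -0.08 in wild-type animals. The small subunit genes were also the more dispersed, with an SD over genes of 0.65 against 0.44 for the large subunit in Atf6a-/- animals and 0.52 against 0.37 in wild-type animals. Genes are not replicates, so no test was made of this difference. Without probesets of types that can read more than 1 transcript (_s_at, _x_at and _a_at), *Mrps12*, *Mrps17*, *Mrps18b* and *Mrps23* have no value. The members called higher were then *Mrps26*, *Mrps31* and the large subunit gene *Mrpl44* in Atf6a-/- animals, and *Mrps26* and *Mrpl44* in wild-type animals. The excess of small subunit genes among the increases thus rested largely on such probesets.

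*Mrps18b* had the largest increase of any member. It encodes one of 3 mammalian relatives of the bacterial protein S18. Its level was 11.78, 11.90 and 12.18 in Atf6a-/- animals with TM, against 10.34, 10.14 and 10.33 with vehicle. In wild-type animals it was 11.66, 11.80 and 11.66 with TM, against 9.74, 10.40 and 9.78 with vehicle. The lowest TM array thus lay above the highest vehicle array in both genotypes. The difference was 1.69 (standard error 0.16, 3.22-fold, adjusted p = 1.11e-05) in Atf6a-/- animals and 1.73 (standard error 0.16, 3.32-fold, adjusted p = 1.36e-05) in wild-type animals.

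The other 2 genes of the S18 family did not follow it. *Mrps18a* averaged 9.37 ± 0.015 with TM and 9.24 ± 0.19 with vehicle in Atf6a-/- animals (SD, n = 3 each), and 9.22 ± 0.066 and 9.17 ± 0.29 in wild-type animals, and was not called. *Mrps18c* averaged 10.07 ± 0.081 with TM and 10.62 ± 0.029 with vehicle in Atf6a-/- animals, a difference of -0.55 (adjusted p = 0.000569) that stayed under 1.5-fold. In wild-type animals the *Mrps18c* difference was -0.24 (adjusted p = 0.0865).

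*Mrps12* encodes the counterpart of the bacterial decoding-centre protein S12. Its level was 11.00, 11.33 and 11.36 with TM and 10.43, 10.21 and 10.24 with vehicle in Atf6a-/- animals. Wild-type animals had 11.15, 11.21 and 11.22 with TM and 10.11, 10.21 and 10.12 with vehicle. The groups lay apart in both genotypes, by 0.94 (1.91-fold, adjusted p = 3.83e-05) in Atf6a-/- animals and by 1.05 (2.07-fold, adjusted p = 2.32e-05) in wild-type animals.

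*Mrps26* and *Mrps23*, small subunit proteins without a bacterial relative, also rose in both genotypes. *Mrps26* was 10.16, 9.97 and 10.31 with TM and 8.96, 8.89 and 9.17 with vehicle in Atf6a-/- animals (1.14, standard error 0.12, adjusted p = 2.14e-05). The wild-type values of *Mrps26* were 9.84, 9.92 and 9.74 with TM and 8.96, 9.30 and 9.11 with vehicle (0.71, standard error 0.12, adjusted p = 0.00116). Its other probeset, with a mean level of 4.32, differed by -0.10 in Atf6a-/- and 0.01 in wild-type animals and was not called, and with the mean of both probesets *Mrps26* is not called in either genotype (0.52 in Atf6a-/- and 0.36 in wild-type animals).

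*Mrps23* was higher by 1.04 (adjusted p = 8.81e-05) in Atf6a-/- animals and by 0.83 (adjusted p = 0.000713) in wild-type animals, and its groups lay apart. Its 3 probesets were all called higher in both genotypes, with differences of 0.88 to 1.20 in Atf6a-/- animals and 0.67 to 0.85 in wild-type animals. All 3 are of types that can read more than 1 transcript (_a_at and _x_at), as are the single probesets of *Mrps18b* (_a_at) and *Mrps12* (_s_at). Without such probesets *Mrps23*, *Mrps18b* and *Mrps12* have no value, and 3 members are called higher in Atf6a-/- animals and 2 in wild-type animals.

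**Figure D2:**
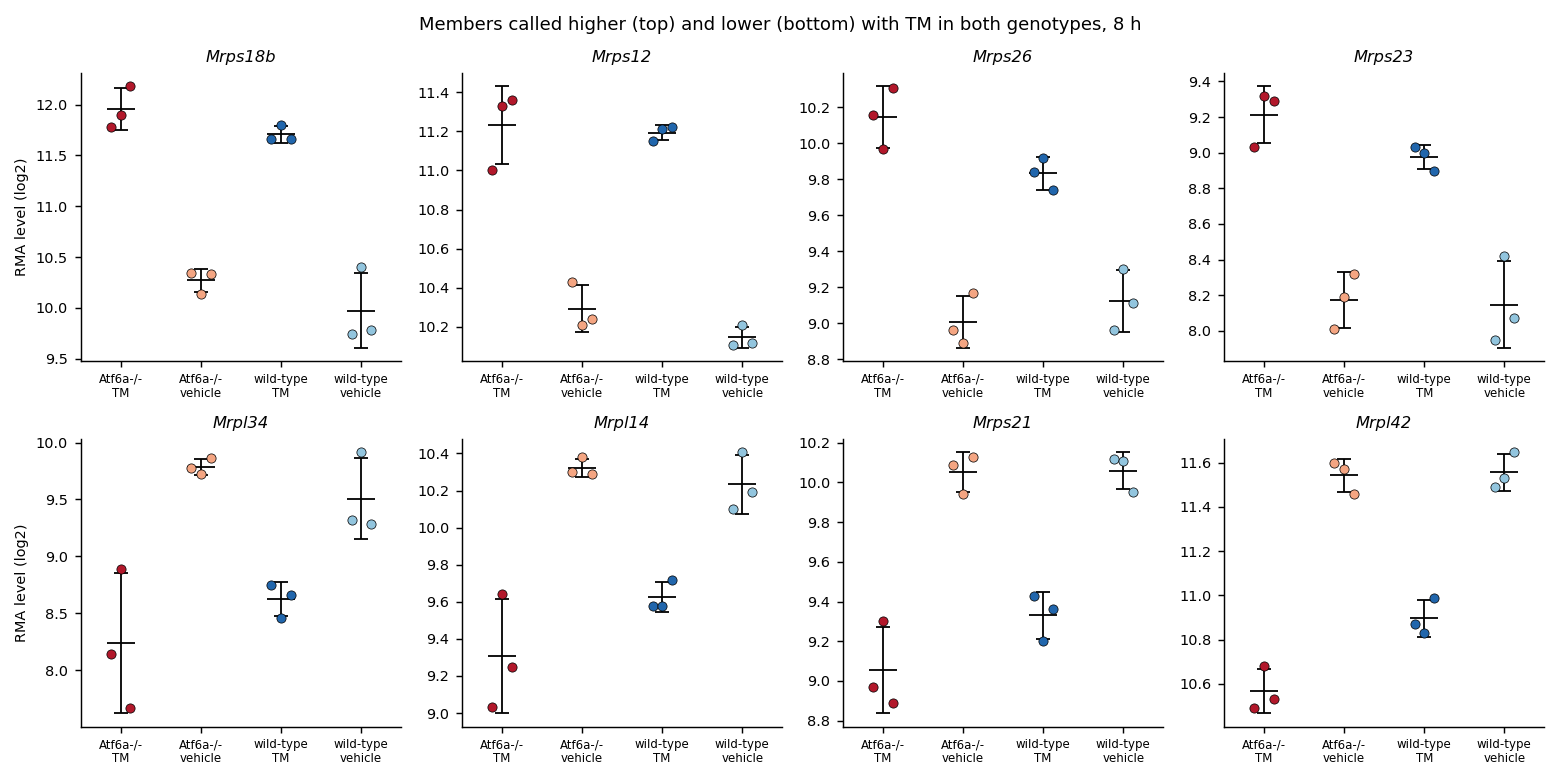
RMA level on the log2 scale (y axis, not starting at 0) of 4 members that rose with TM in both genotypes (top) and 4 that fell in both (bottom), by group, with each point 1 animal, the long line the mean and the bar the SD of 3 animals. For all 8 genes the TM and vehicle points of a genotype do not overlap, with Mrps18b at 11.66 or above on TM arrays and 10.40 or below on vehicle arrays, and Mrpl34 the most spread.

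Further increases were called in 1 genotype. In Atf6a-/- animals *Mrpl17* (0.73), *Mrps17* (0.69) and *Mrps31* (0.66) rose, the first 2 of them counterparts of bacterial ribosomal proteins. In wild-type animals their differences were 0.53, 0.35 and 0.15. By the test of the interaction no difference between the genotypes' responses was called (adjusted p = 0.687, 0.348 and 0.0736), although that of *Mrps31* was 0.52 (standard error 0.12). The increase of *Mrpl17* was read by its brightest probeset only, since its 2 others, with mean levels of 5.77 and 5.44, differed by -0.19 and -0.13 in Atf6a-/- animals. That of *Mrps31* is also lost with the mean of its probesets (0.40). *Mrpl44*, a protein with an RNase III-like fold, rose in wild-type animals by 0.60 (adjusted p = 0.00101) and was 0.40 higher in Atf6a-/- animals (adjusted p = 0.00934, interaction adjusted p = 0.681), where 2 other probesets of it were called higher (0.65 and 0.78). The call of *Mrpl44* is lost without wild-type TM replicate 2 or wild-type vehicle replicate 2.

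*Mrpl34*, whose product corresponds to one of the smallest proteins of the bacterial large subunit, had the largest decrease of any member in Atf6a-/- animals. In wild-type animals *Mrpl49* fell most (-1.30). *Mrpl34* was at 8.14, 8.89 and 7.67 with TM and 9.78, 9.72 and 9.86 with vehicle in Atf6a-/- animals. Wild-type animals had 8.75, 8.46 and 8.66 with TM and 9.32, 9.92 and 9.28 with vehicle. The groups lay apart, by -1.55 (standard error 0.25, 2.93-fold lower, adjusted p = 0.000559) in Atf6a-/- animals and by -0.88 (standard error 0.25, 1.84-fold lower, adjusted p = 0.0282) in wild-type animals. Its within-group SD of 0.366 was the highest of all members, and the wild-type call is lost without any one of the 3 wild-type TM arrays or wild-type vehicle replicate 2.

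*Mrpl42*, which has no bacterial relative, gave the smallest adjusted p of any member. It was 10.49, 10.68 and 10.53 with TM and 11.60, 11.57 and 11.46 with vehicle in Atf6a-/- animals. Wild-type animals had 10.87, 10.83 and 10.99 with TM and 11.49, 11.53 and 11.65 with vehicle. All TM arrays were below all vehicle arrays, by -0.97 (standard error 0.09, adjusted p = 8.42e-06) in Atf6a-/- animals and by -0.66 (standard error 0.09, adjusted p = 0.000242) in wild-type animals. Its other probeset, at a mean level of 3.69, differed by -0.15 in Atf6a-/- animals and by -0.24 in wild-type animals, and with the mean of both probesets *Mrpl42* stays under 1.5-fold (-0.56 and -0.45).

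*Mrps21*, the counterpart of bacterial S21, was 8.97, 9.30 and 8.89 with TM and 10.09, 9.94 and 10.13 with vehicle in Atf6a-/- animals (means of 9.06 ± 0.22 and 10.05 ± 0.098, adjusted p = 5.02e-05). The wild-type values of *Mrps21* were 9.43, 9.20 and 9.36 with TM and 10.12, 10.11 and 9.95 with vehicle (-0.73, adjusted p = 0.000802). *Mrpl14* was 9.03, 9.64 and 9.25 with TM and 10.30, 10.38 and 10.29 with vehicle in Atf6a-/- animals (-1.02, adjusted p = 0.000148). Both genes were lower on every TM array than on any vehicle array of the same genotype. The wild-type decrease of *Mrpl14* was -0.61 (adjusted p = 0.00821), and this call is lost without wild-type TM replicate 1 or 2 or wild-type vehicle replicate 2.

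*Mrpl12* and *Mrps25* completed the 6 members that fell in both genotypes. The product of *Mrpl12* is the flexible stalk protein that recruits translation factors, and it is known in addition to bind the mitochondrial RNA polymerase. It averaged 10.55 ± 0.083 with TM and 11.20 ± 0.073 with vehicle in Atf6a-/- animals (-0.66, adjusted p = 0.00028), and 10.53 ± 0.16 and 11.22 ± 0.06 in wild-type animals (-0.69, adjusted p = 0.000301). The decrease of *Mrps25* was -0.85 (adjusted p = 0.000178) in Atf6a-/- animals and -0.66 (adjusted p = 0.00157) in wild-type animals. With each gene's probesets averaged, the wild-type decreases of *Mrps21* (-0.56) and *Mrps25* (-0.48) stay under 1.5-fold.

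*Mrpl18* (-0.65), *Mrpl28* (-0.61) and *Mrps24* (-0.61), all counterparts of bacterial proteins, fell in Atf6a-/- animals. In wild-type animals they differed by -0.45, -0.44 and -0.41 and were not called. None of the 3 differences in response between the genotypes was called (interaction adjusted p = 0.836, 0.762 and 0.673). Each of these calls rests on single arrays: *Mrpl18* is lost without Atf6a-/- TM replicate 1 or Atf6a-/- vehicle replicate 3, *Mrpl28* without Atf6a-/- TM replicate 3, and *Mrps24* without Atf6a-/- TM replicate 1 or 3.

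Members with a described role moved in both directions. Of 34 members on a list of such roles, *Mrps36* among them, 3 rose (8.82%) and 5 fell (14.7%) in Atf6a-/- animals. In wild-type animals 4 rose (11.8%) and 2 fell (5.88%). The shares of all genes were 13.1% and 8.21% in Atf6a-/- and 8.92% and 6.9% in wild-type animals. The medians of the listed members were -0.14 in Atf6a-/- and -0.06 in wild-type animals. Without *Mrps36*, 4 fell in Atf6a-/- animals. At the base of the stalk, *Mrpl10* differed by -0.20 in Atf6a-/- and -0.08 in wild-type animals and *Mrpl11* by -0.48 in Atf6a-/- and -0.35 in wild-type animals. Of the genes near the exit of the polypeptide tunnel, *Mrpl24* differed by 0.42 in each genotype and *Mrpl45*, which faces the inner membrane, by -0.34 in Atf6a-/- and -0.16 in wild-type animals. *Mrpl58*, a peptidyl-tRNA hydrolase that was built into the large subunit, differed by 0.01 in Atf6a-/- and 0.00 in wild-type animals. None of these 5 was called by its brightest probeset. For *Mrpl11* a probeset at a mean level of 9.14 was called lower in Atf6a-/- animals (-0.77, adjusted p = 3.39e-05) and not in wild-type animals (-0.52), and one at 7.85 was called lower in both (-0.72 in Atf6a-/- and -0.68 in wild-type animals). Several probesets were present for 42 members. In all 9 members in Atf6a-/- animals and 4 in wild-type animals had another probeset that was called where the brightest was not. Of all probesets 10.6% were higher and 5.95% lower in Atf6a-/- animals, and 7.1% and 4.95% in wild-type animals.

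The genotypes differed little at these genes when unstressed. Under vehicle 0 of 76 members and 0% of all probesets were called between Atf6a-/- and wild-type animals by limma. At an unadjusted p under 0.05 there were 3 members, against 3.88% of all genes, and the methods' t-test with adjustment called 0. The differences ran from -0.28 (*Mrps6*) to 0.29 (*Mrps18b*), with a median of -0.04 (0.00 over all genes). *Mrpl45* (0.16), *Mrps12* (0.15), *Mrpl13* (-0.18) and *Mrps28* (-0.27) were the other members with the largest statistics, none of them called.

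Under TM 1 member was higher and 1 lower in Atf6a-/- than in wild-type animals. This compares with 2.89% of all genes higher and 1.53% lower (1.92% and 1.19% of probesets). The TM arrays of the genotypes did not overlap for 18 of 76 members (23.6% of all genes), and the median difference was -0.06 (-0.02 over all genes). The response to TM differed between the genotypes for 1 member, which was lower, and for 0 that were higher, where 1.06% of all genes were called higher and 0.748% lower (0.655% and 0.582% of probesets). That member, and the 1 lower under TM, was *Mrps36*, whose protein is not part of the ribosome. Without it no member was called lower in either comparison. At an unadjusted p under 0.05 this difference in response was found for 10 members (14.3% of all genes).

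*Mrps36* was the member that differed most. It was at 7.73, 7.70 and 7.69 in Atf6a-/- animals with TM, against 8.78, 8.67 and 8.63 with vehicle. Wild-type animals had 8.84, 9.06 and 9.08 with TM, against 8.84, 8.54 and 8.66 with vehicle. The Atf6a-/- TM arrays were thus below all the others, which lay between 8.54 and 9.08. Its TM response was -0.99 (standard error 0.1, 1.99-fold lower, adjusted p = 1.6e-05) in Atf6a-/- animals and 0.32 (adjusted p = 0.0452, under 1.5-fold) in wild-type animals. The difference between these responses was -1.31 (standard error 0.14, adjusted p = 0.000804), and under TM the genotypes differed by -1.29 (2.45-fold lower, adjusted p = 1.79e-05) and under vehicle by 0.02. The difference in response was called in each of the 23 other settings run for it. Those without a fold limit or with unadjusted p are looser than the rule and could not lose it. Those that average probesets or drop the _s_at, _x_at and _a_at types reuse its single probeset.

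*Mrpl49*, a large subunit protein without a bacterial relative, differed the other way. It was at 7.91, 8.26 and 7.91 in Atf6a-/- animals with TM, against 8.55, 8.40 and 8.64 with vehicle. In wild-type animals it was at 7.46, 7.11 and 7.28 with TM, against 8.34, 8.87 and 8.55 with vehicle. The decrease was -1.30 (standard error 0.15, 2.47-fold lower, adjusted p = 5.71e-05) in wild-type animals, while the Atf6a-/- difference of -0.50 (adjusted p = 0.0246) was under 1.5-fold. Under TM the gene was 0.74 higher in Atf6a-/- than in wild-type animals (1.68-fold, adjusted p = 0.0132), a call that is lost without wild-type TM replicate 2 or 3. The responses differed by 0.80, which was not called (adjusted p = 0.104). A second probeset of *Mrpl49* read larger differences, of -0.70 in Atf6a-/- animals and -2.36 in wild-type animals, both called, and here the difference in response was called (1.66, adjusted p = 0.00883).

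In the RefSeq annotation (GRCm38.p6) the 3′ end of *Mrpl49* overlaps that of *Syvn1*, on the opposite strand, which encodes the ubiquitin ligase HRD1 of ER-associated degradation. The pair was looked up after the values of *Mrpl49* had been seen. *Syvn1* was at 11.46, 11.31 and 11.63 in Atf6a-/- animals with TM, against 9.19, 9.22 and 9.29 with vehicle. Wild-type animals had 13.02, 12.89 and 12.90 with TM, against 8.76, 9.47 and 8.84 with vehicle. *Syvn1* thus rose most in the genotype in which *Mrpl49* fell most, by 2.23 (adjusted p = 1.33e-06) in Atf6a-/- animals and 3.91 (adjusted p = 1.95e-08) in wild-type animals. The difference between Atf6a-/- and wild-type animals under TM was -1.47 (adjusted p = 0.00024), and the difference in response was -1.68 (adjusted p = 0.00335). Whether the one affects the signal of the other was not tested. In all 24 members have a gene model that overlaps another (29 pairs, 21 of them measured). Of the 5 measured pairs with a called member in wild-type animals, 2 had a called partner, *Syvn1* in the opposite and *Tmem63b*, beside *Mrpl14*, in the same direction.

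**Figure D3:**
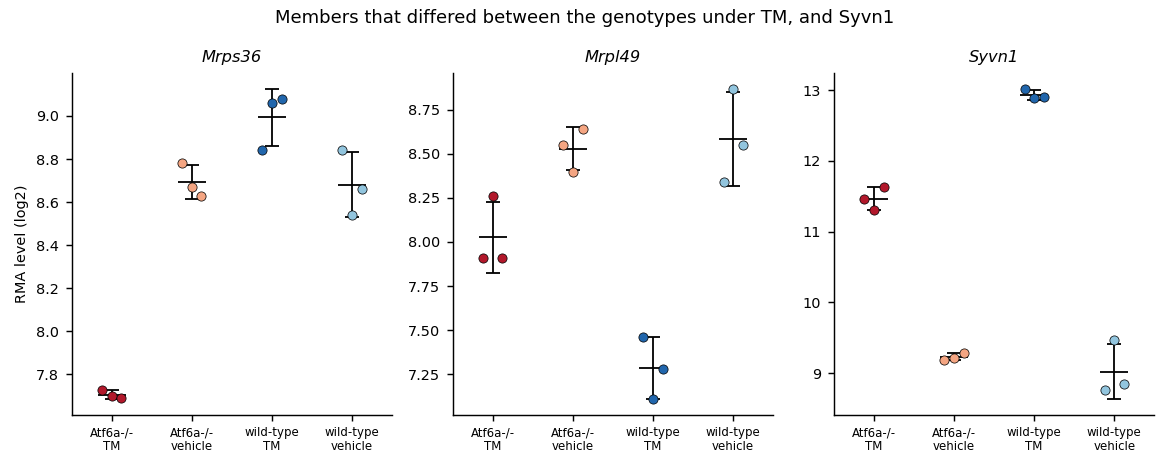
RMA level on the log2 scale (y axis, not starting at 0) of Mrps36, Mrpl49 and the neighbour Syvn1 by group, with each point 1 animal, the long line the mean and the bar the SD of 3 animals. Mrps36 is at 7.69 to 7.73 in Atf6a-/- animals with TM and at 8.54 or above elsewhere, while Mrpl49 is lowest and Syvn1 highest in wild-type animals with TM.

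Of the other members with large statistics, *Mrps31* differed by 0.36 (adjusted p = 0.0369), *Mrps27* by -0.40 (adjusted p = 0.0336) and *Mrps18c* by -0.37 (adjusted p = 0.0369) between Atf6a-/- and wild-type animals under TM. None of these differences passed 1.5-fold. The product of *Mrps27* belongs to the pentatricopeptide repeat proteins, which bind RNA. It averaged 8.01 ± 0.12 with TM and 8.15 ± 0.12 with vehicle in Atf6a-/- animals, and 8.41 ± 0.07 and 8.09 ± 0.034 in wild-type animals, and its difference in response of -0.46 was not called (adjusted p = 0.145). *Mrps17* was 0.25 higher under TM (adjusted p = 0.204), and *Mrps6* and *Mrps11* differed in response by 0.50 and -0.45 (adjusted p = 0.206 and 0.304).

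**Figure D4:**
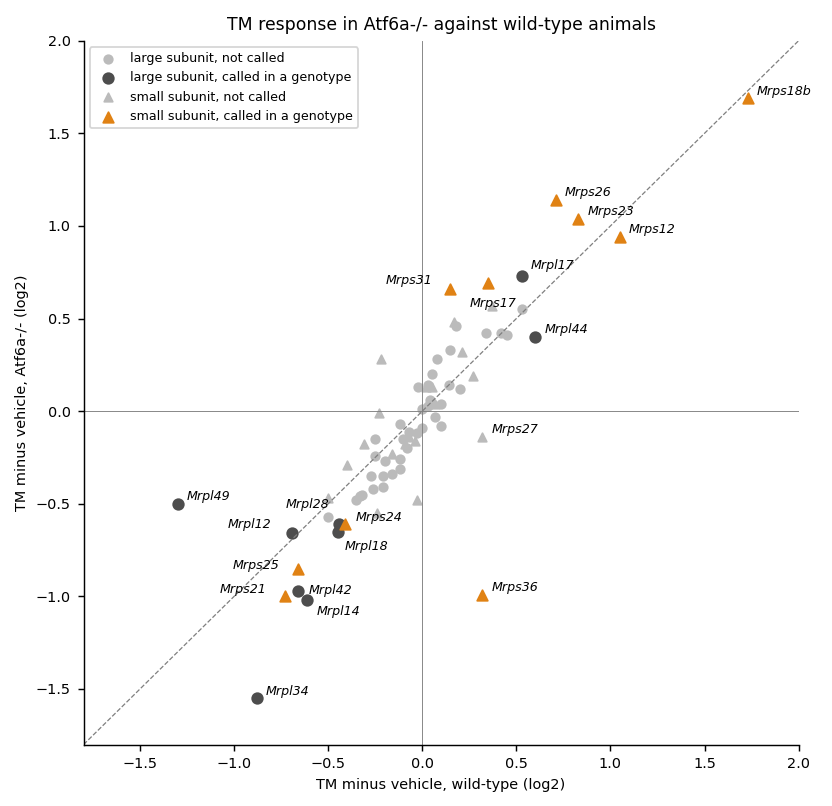
TM response of the 76 members in Atf6a-/- animals (y axis) against wild-type animals (x axis), both as log2 differences, with circles for the large and triangles for the small subunit and grey for members called in neither genotype. Most members lie near the dashed line of equal response, with Mrps36 at -0.99 in Atf6a-/- and 0.32 in wild-type animals and Mrpl49 at -0.50 and -1.30.

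Many of these genes share a promoter region with a neighbour on the other strand. In RefSeq 26 members have a divergent partner whose start lies within 1000 bases, and all 26 partners were measured. Among the 5 pairs with a called member in Atf6a-/- animals, and the 5 in wild-type animals, 1 partner was called in the same direction. This was *Tmem63b*, beside *Mrpl14*, which fell by 0.89 in Atf6a-/- animals (adjusted p = 0.000517) and by 0.65 in wild-type animals (adjusted p = 0.00666), and whose gene model also overlaps that of *Mrpl14*. The partner of *Mrps12* is *Sars2*, for the mitochondrial seryl-tRNA synthetase, which differed by 0.16 in each genotype. The partner of *Mrps18b*, *Ppp1r10*, differed by 0.14 in Atf6a-/- and 0.12 in wild-type animals, and that of *Mrpl49*, *Fau*, by -0.01 in Atf6a-/- and -0.06 in wild-type animals. None of these 3 partners was called. Over all genes 13.1% rose and 8.21% fell in Atf6a-/- animals, and 8.92% and 6.9% in wild-type animals. Beside members that were not called, 5 partners rose and 1 fell in Atf6a-/- animals and 2 rose and 1 fell in wild-type animals. Of these *Rab6a*, beside *Mrpl48*, rose by 1.04 in Atf6a-/- and 1.13 in wild-type animals, and *Twnk*, for the helicase of mitochondrial DNA, rose by 1.37 in Atf6a-/- and 0.78 in wild-type animals, while its partner *Mrpl43* differed by 0.14 in Atf6a-/- and 0.03 in wild-type animals. *Mrpl46* and *Mrps11*, which are each other's partner, differed by -0.31 and -0.48 in Atf6a-/- animals and by -0.12 and -0.03 in wild-type animals.

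Other genes of mitochondrial translation were described from lists, by counts and medians. The counts compare with 13.1% of all genes higher and 8.21% lower in Atf6a-/- animals, and 8.92% and 6.9% in wild-type animals. Of 4 further proteins of the ribosome itself (*Dap3*, *Ptcd3*, *Chchd1* and *Gadd45gip1*) none was called, and *Dap3* had the largest statistic (-0.36 in Atf6a-/- and -0.31 in wild-type animals). Of 22 genes for assembly of the ribosome and modification of its RNA, 8 rose (36.4%) and 2 fell (9.09%) in Atf6a-/- animals. In wild-type animals 4 rose (18.2%) and 1 fell (4.55%), and the medians were 0.33 in Atf6a-/- and 0.10 in wild-type animals. *Ddx28*, a helicase of large subunit assembly, was 12.27, 11.94 and 12.10 with TM and 7.88, 8.15 and 8.08 with vehicle in Atf6a-/- animals. Wild-type animals had 11.54, 10.96 and 11.20 with TM and 8.01, 8.19 and 8.19 with vehicle. This rise of 4.07 in Atf6a-/- animals (adjusted p = 1.26e-08) and 3.10 in wild-type animals (adjusted p = 5.68e-08) exceeded that of any member. *Tfb1m*, which methylates the small subunit ribosomal RNA, rose by 1.57 in Atf6a-/- and 1.76 in wild-type animals, and *Mterf3* by 1.08 in Atf6a-/- and 0.62 in wild-type animals. Under TM 5 of the 22 were higher in Atf6a-/- than in wild-type animals (22.7%, against 2.89% of all genes) and none lower. For 3 the difference in response was called higher (13.6%, against 1.06% of all genes), with *Ddx28* among them (0.97, adjusted p = 0.042).

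Of 16 mitochondrial aminoacyl-tRNA synthetases 7 rose (43.8%) and 1 fell (6.25%) in Atf6a-/- animals, against 13.1% and 8.21% of all genes. In wild-type animals 3 rose (18.8%) and 1 fell (6.25%), against 8.92% and 6.9% of all genes. The medians were 0.30 in Atf6a-/- and 0.11 in wild-type animals. In Atf6a-/- animals *Ears2* rose by 1.58 and *Cars2* by 0.91 while *Lars2* fell by 0.96, and in wild-type animals *Ears2* rose by 1.63 and *Cars2* by 0.95 while *Lars2* fell by 1.08. Of 12 translation factors 1 rose and 1 fell in each genotype (8.33% each, medians -0.04 in Atf6a-/- and -0.21 in wild-type animals). The release factor *Mtrf1l* rose by 1.46 in Atf6a-/- and 0.65 in wild-type animals. The elongation factor *Gfm1* differed by -0.34 in Atf6a-/- animals, uncalled, and fell by 0.60 in wild-type animals, and *Gfm2*, of ribosome recycling, differed by -0.41 in Atf6a-/- and -0.53 in wild-type animals, uncalled in both. Of 10 genes that copy or transcribe mitochondrial DNA 3 rose in Atf6a-/- animals (30%) and 1 in wild-type animals (10%), and none fell. The medians were 0.44 in Atf6a-/- and -0.05 in wild-type animals. *Tfam*, which packages mitochondrial DNA, differed by 0.01 in Atf6a-/- and -0.52 in wild-type animals, and *Ssbp1*, the single-stranded DNA binding protein, by 0.53 in Atf6a-/- and 0.56 in wild-type animals, with no call.

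Of 12 regulators known to act on such genes 7 rose (58.3%) and 2 fell (16.7%) in Atf6a-/- animals. In wild-type animals 3 rose and 3 fell (25% each), and the medians were 0.81 in Atf6a-/- and 0.36 in wild-type animals. Over all genes 13.1% rose and 8.21% fell in Atf6a-/- animals, and 8.92% and 6.9% in wild-type animals. *Ppargc1a*, the coactivator PGC-1α, fell by 3.03 in Atf6a-/- and 2.90 in wild-type animals, while the related *Pprc1* rose by 2.84 in Atf6a-/- and 1.87 in wild-type animals. *Myc*, a factor of ribosome production and growth, rose 9.98-fold in Atf6a-/- and 2.83-fold in wild-type animals. The 79 nuclear genes of the respiratory chain and ATP synthase moved more uniformly than the members. In Atf6a-/- animals 0 rose and 22 fell (27.8%), with 76 of 79 below 0 and a median of -0.38. In wild-type animals 1 rose (1.27%) and 7 fell (8.86%), with 77 below 0 and a median of -0.27. *Ndufa5* of complex I was 10.33, 10.50 and 10.49 with TM and 11.34, 11.28 and 11.40 with vehicle in Atf6a-/- animals (-0.90, adjusted p = 8.14e-06) and fell by 0.64 in wild-type animals. *Sdhd* of complex II fell by 0.91 in Atf6a-/- and 0.79 in wild-type animals, and *Ndufb10* of complex I by 0.82 in Atf6a-/- and 0.67 in wild-type animals. Of 49 cytosolic ribosomal protein genes 5 rose in Atf6a-/- animals (10.2%) and 2 in wild-type animals (4.08%), and none fell. Both shares were below those of all genes, and the medians were 0.17 in Atf6a-/- and 0.08 in wild-type animals. In Atf6a-/- animals *Rpl12* rose by 2.87 and *Rps25* by 0.91 and *Rplp0* differed by 0.34, uncalled, and in wild-type animals the values were 2.20 and 0.79, both called, and 0.35, uncalled. Of the members, 44 of 76 were below 0 in Atf6a-/- animals (57.9%, against 64.1% of all genes) and 42 in wild-type animals (55.3%, against 60.6%).

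**Figure D5:**
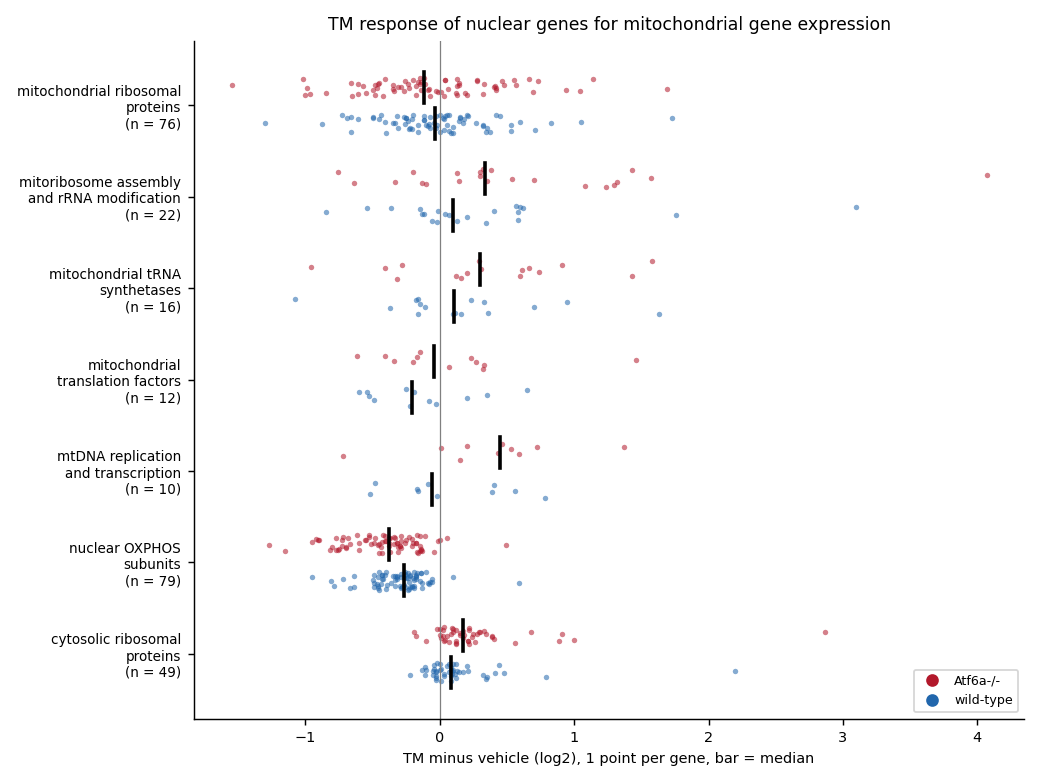
TM minus vehicle on the log2 scale (x axis) for each gene of 7 lists, with Atf6a-/- animals in red above wild-type animals in blue, 1 point per gene and a black bar at the median. The 76 members scatter on both sides of 0 (medians -0.12 and -0.04), nearly all nuclear OXPHOS (respiratory chain and ATP synthase) genes lie below 0 (-0.38 and -0.27), and the assembly genes have the point farthest to the right, Ddx28 at 4.07 in Atf6a-/- animals.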

How the data were processed

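The log2 values used here were deposited as the authors computed them with RMA, named in the labels beside affy and limma (versions: not given in the sources used here). RMA corrects background, normalizes arrays by quantiles and summarises probes. They were left unchanged, with 64 array controls removed from 45101 probesets and genes taken from the platform annotation. Neither background correction nor a scan batch could be varied.

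The 4 group means were estimated from all 12 arrays in limma 3.58.1 (R 4.3.3), eBayes adding 4.25 prior to 8 residual degrees of freedom. Of 5 contrasts, 2 set TM against vehicle (1 per genotype), 2 set the genotypes against each other (under TM, under vehicle) and 1 compared the TM responses. The number of arrays limits the precision. The fit was tested on simulated data.

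The members and lists were chosen with earlier results of these data known. Named genes were called members, the 3 largest limma statistics in each direction of a contrast, the 5 highest and lowest means, members of a list of roles, members with probesets that differ by over 1, and the 3 largest statistics of each other list. *Aurkaip1*, *Mtrf1* and *Taco1* had no probeset of their own. The alternatives were cyclic loess, centring on *Btf3* and *Ppia* (whose probeset also names a pseudogene), a replicate block, a sex covariate, leave-one-out, a contrast's own arrays, no fold limit, unadjusted p, robust eBayes with a trend, the methods' t-test, no dim probesets, the mean of a gene's probesets, and no _s_at, _x_at or _a_at probesets. A fit without 4 arrays with Y-linked signal was chosen after seeing the data.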

Additional observations from a re-analysis of the deposited data

Results flagged for a closer look

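The response of *Mrps36* to TM differed between the genotypes by limma's test of that difference, by -1.31 (Atf6a-/- minus wild-type, standard error 0.14, adjusted p = 0.000804). All 3 Atf6a-/- animals with TM lay below all vehicle animals of that genotype, and the responses were -0.99 in Atf6a-/- and 0.32 in wild-type animals. By the brightest probesets *Mrps36* was the single member with such a difference, and its protein is not part of the ribosome. A dimmer probeset of *Mrpl49* was also called, in the other direction. With 3 animals per group no sample was examined for lying far from the others.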

How the results depend on the processing

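Replicate numbers did not pair the animals (correlations of same-numbered deviations between -0.48 and 0.39), and the replicate block changed no call, with 7 members higher and 10 lower with TM in Atf6a-/- animals and 5 and 7 in wild-type animals. Of 32 called results 14 were called in every setting run for them. The settings with no fold limit or unadjusted p are looser than the rule and could lose no call. Among the 14 are results of *Mrps12*, *Mrps17*, *Mrps18b*, *Mrps23* and *Mrpl49*, which have no value without _s_at, _x_at and _a_at probesets. Of the 32 results 31 kept their direction. The exception was *Mrpl17* in Atf6a-/- animals, at -0.19 without _s_at, _x_at and _a_at probesets, where a dimmer probeset takes its place. That setting left 62 members and called 3 higher with TM in Atf6a-/- animals, 2 in wild-type animals and 0 in Atf6a-/- over wild-type animals under TM, where *Mrps36* was still called lower. Without a fold limit 14 members were higher and 25 lower in Atf6a-/- animals, 13 and 13 in wild-type animals, and 2 and 3 between the genotypes under TM. Averaging all probesets of a gene left 4 that fell in wild-type animals. The methods' t-test with adjustment called 2 higher in wild-type animals, and 0 higher and 0 lower in Atf6a-/- against wild-type animals under TM. The difference in response gained 1 higher member (*Mrpl49*) with the sex covariate, with unadjusted p and with the mean of probesets, and had 2 lower without the 4 arrays with Y-linked signal (*Mrpl34* in addition), a fit chosen after seeing the data in which *Mrpl14* and *Mrpl44* were no longer called in wild-type animals. The methods' t-test and the fits of a contrast's own arrays give no value for it.

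The median TM response in Atf6a-/- animals, -0.116, was -0.169 with cyclic loess, -0.184 centred on *Btf3* and *Ppia*, -0.164 without those probeset types, and -0.066 to -0.167 when single arrays were left out. The median of the difference in response was -0.108 with cyclic loess and -0.107 to 0.025 when single arrays were left out. The median between the genotypes under vehicle was 0.018 centred on *Btf3* and *Ppia*. Leaving out wild-type TM replicate 2 or 3 took the count higher between the genotypes under TM to 0 (0 to 1 over the arrays). The cause of these changes was not tested. No scaling moved the median of all probesets by more than 0.076.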
